A study of Mus musculus with 10 samples.

Results

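The genes described here are 10 genes of branched-chain amino acid breakdown, *Bcat2*, *Bckdha*, *Bckdhb*, *Dbt*, *Bckdk*, *Ppm1k*, *Ivd*, *Pcca*, *Pccb* and *Mmut*. They were chosen by gene symbol, and all 10 were found among the 57185 genes with counts and among the 13454 genes tested. RNA from the apical part of the ventricles, labelled as left ventricle, was sequenced after poly(A) selection from 5 MLPKO and 5 MLPKO-cRADKO male mice, with 1 library per mouse. Mice of both genotypes lacked muscle LIM protein, the product of *Csrp3*, which gives a dilated cardiomyopathy, and both carried floxed *Rrad*, the gene for the calcium channel regulator RAD. MLPKO-cRADKO mice also carried MYH6-MerCreMer, a tamoxifen-inducible recombinase expressed in cardiomyocytes, so that *Rrad* was deleted in those cells alone. All mice received tamoxifen at 100 mg per kg at 10 weeks of age, and the labels give the hearts as 16 weeks old and as taken 1 month after tamoxifen. As the MLPKO mice carried no recombinase, an effect of the recombinase and an effect of the *Rrad* deletion cannot be told apart, and no heart with intact muscle LIM protein was analysed here.

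Leucine, isoleucine and valine are broken down in mitochondria. A transaminase first removes the amino group, and the branched-chain α-keto acid dehydrogenase complex then decarboxylates the keto acids, a step that cannot be reversed. A kinase switches this complex off by phosphorylating its E1α subunit and a phosphatase switches it on again, and the products end as acetyl-CoA, acetoacetate or succinyl-CoA. Reduced expression of these genes and raised levels of the keto acids have been described in failing hearts.

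The kinase and the phosphatase act on serine residues of the E1α subunit, which is encoded by *Bckdha*. The stretch of its coding sequence that holds them is shown because the balance of these 2 enzymes is compared below. It was read from GRCm39, chr7:25330548-25330777, minus strand, with exons 7 and 8 joined, and the capitals mark the codons of serines 338 and 348 of the 446 residues, counted from the first methionine of the canonical GENCODE M39 transcript.
Bckdha: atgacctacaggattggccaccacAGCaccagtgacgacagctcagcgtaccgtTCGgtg
All 60 of these bases lie beneath annotated exons of *B3gnt8* on the opposite strand, a point that returns with the *Bckdha* counts.

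Total counts per mouse ranged from 33457406 to 49965101 in MLPKO and from 33759811 to 46280882 in MLPKO-cRADKO. *Rrad* itself had a log2 fold change of −0.38 (SE 0.20, edgeR adjusted p = 0.290) with overlapping genotypes. The deleted exons were not counted apart from the rest of the gene, nor cardiomyocytes from other cells. Although the genotype is named a knockout, *Csrp3* transcript was counted in every mouse, with 41725 to 134795 normalized counts (raw counts scaled to a common library size) in MLPKO and 28553 to 48660 in MLPKO-cRADKO. Its log2 fold change was −1.08 (95% interval −1.72 to −0.44), with an adjusted p of 0.0666 in edgeR and 0.0362 in DESeq2. The summed level of 6 cardiomyocyte marker genes was 51400 to 60070 CPM (counts scaled to a common library total) in MLPKO and 38320 to 50730 in MLPKO-cRADKO, of which edgeR called 1 gene, *Tnnt2* (adjusted p = 0.0185), and DESeq2 called 3. *Myh6* had the highest counts of the 6 and weighs most in the sum. The log2 fold change was below 0 in 5 of the 6 and above 0 in *Tnni3* (0.13, edgeR adjusted p = 0.421). The sum of 4 endothelial markers was 609 to 688 and 705 to 829 CPM, and that of 5 macrophage markers 85.4 to 123 and 107 to 182 CPM, and each of these 9 genes was higher in MLPKO-cRADKO with an unadjusted p under 0.05. Over all genes tested, 21.6% had an unadjusted p under 0.05. By adjusted p, edgeR called 0 of these 9 genes, against 2.74% of all genes. DESeq2 called 2 in each list, against 10.0% of all genes with an adjusted p. The sums of 3 smooth muscle markers were 65.5 to 153 and 122 to 271 CPM. Of these genes, *Acta2* was called higher by edgeR (adjusted p = 0.0461) but not by limma-voom (adjusted p = 0.0517). *Myh11* had a log2 fold change of 0.0062 (edgeR adjusted p = 0.988), and *Tagln* did not pass the count filter. The fibroblast sums overlapped at 832 to 1237 and 714 to 1238 CPM. MLPKO mouse 2 stood apart on the first principal component, at 55.7 against −24.0 to 22.5 for the other 9 mice. MLPKO-cRADKO mouse 3 held adipocyte transcripts, with 75.9 CPM over 4 markers against at most 0.662 in the other mice and with *Ucp1* at 0. MLPKO-cRADKO mouse 1 had more atrial transcript, with 24.5 CPM over 3 markers against 2.24 to 6.24 in the other mice. Values without each of these mice are given where they bear on a result.

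None of the 10 genes was called between the genotypes with n = 5 mice each, where 2.74% of all genes tested were called. A gene was called when its p from edgeR's quasi-likelihood test, adjusted by Benjamini-Hochberg over all genes tested, was under 0.05. No gene of the 10 had an unadjusted p under 0.05, which 21.6% of all genes had. DESeq2, which called 10.0% of genes with an adjusted p, and limma-voom also called 0 of 10. In none of the 10 did the normalized counts of the genotypes separate without overlap, as they did in 6.62% of all genes. The log2 fold change, with a negative value for a lower count in MLPKO-cRADKO, ran from −0.14 for *Bcat2* to 0.20 for *Ppm1k*, with 6 genes below 0 and 4 above. Its median was −0.046 over the 10 genes and 0.011 over all genes tested, and its median size was 0.071 and 0.14.

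The intervals give the size of difference that these counts still allow. The median SE of the log2 fold change was 0.082 for the 10 genes and 0.11 for all genes. In 9 of the 10 genes the 95% interval lay inside −0.5 to 0.5, as it did for 61.6% of all genes, and the exception was *Ppm1k*, whose interval reached 0.53. All 10 intervals included 0, and differences inside them could not be detected with 5 mice per genotype. In bulk tissue, fewer cells of a type and less RNA per cell cannot be told apart, and the part of the lower cardiomyocyte marker sum in these values was not tested.

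**Figure D1:**
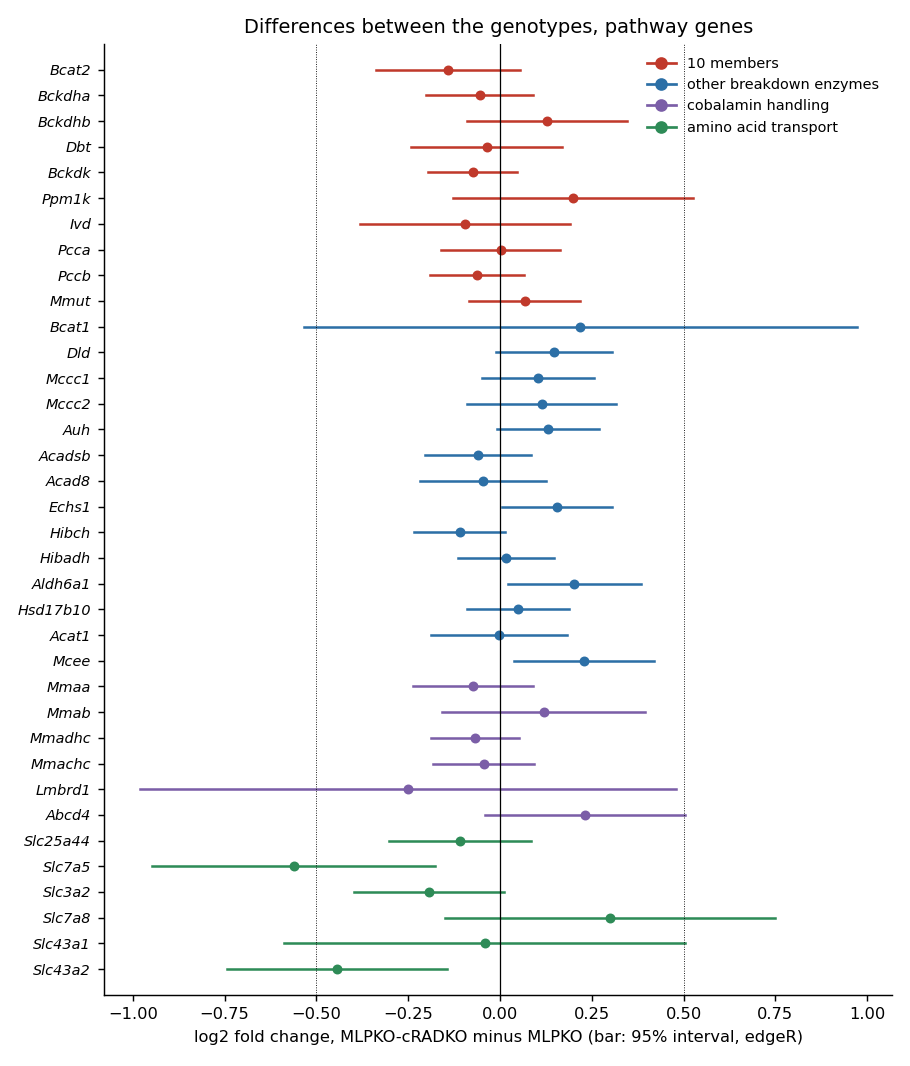
Log2 fold change of MLPKO-cRADKO against MLPKO (x axis) for the 10 genes and for other genes of the pathway, its cofactor and its transporters (y axis); points are edgeR estimates, bars are 95% intervals, and dotted lines mark −0.5 and 0.5. All 10 red bars cross 0 and only that of *Ppm1k* passes 0.5.

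*Bcat2* (chromosome 7, 45219577 to 45239152) encodes the mitochondrial transaminase that opens the pathway. Its normalized counts were 6697, 5547, 7860, 7105 and 7835 in MLPKO mice 1 to 5 and 5912, 6236, 6398, 6787 and 6432 in MLPKO-cRADKO mice 1 to 5. The means were 7009 ± 956 and 6353 ± 318 (SD, n = 5 each). The 5 MLPKO-cRADKO values lay inside the range of the MLPKO values, and 4 of the 5 MLPKO mice were above at least 4 of the 5 MLPKO-cRADKO mice. On the log2 scale the fold change was −0.14 (SE 0.090, 95% interval −0.34 to 0.054, edgeR adjusted p = 0.389), or 90.6% of the MLPKO level with bounds of 79.2% and 104%. This was the smallest adjusted p of the 10 genes. Leaving out MLPKO mouse 2 gave −0.22 (edgeR adjusted p = 0.0946), the smallest adjusted p that any of the 10 genes had under any alternative.

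The dehydrogenase complex is built from E1α (*Bckdha*, chromosome 7, 25326168 to 25358420), E1β (*Bckdhb*, chromosome 9, 83807130 to 84011081) and the E2 transacylase core (*Dbt*, chromosome 3, 116306686 to 116343633). *Bckdha* had normalized counts of 2449, 2185, 2598, 2433 and 2609 in MLPKO and 2126, 2425, 2334, 2570 and 2361 in MLPKO-cRADKO. *Bckdhb* had 1720, 1358, 1992, 2047 and 1886 in MLPKO and 1944, 1960, 1836, 2157 and 1944 in MLPKO-cRADKO. The genotypes overlapped for both E1 genes, and the low end of *Bckdhb* was a single mouse, MLPKO mouse 2.

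*Dbt* had normalized counts of 2772, 2455, 3501, 3333 and 3382 in MLPKO and 3018, 2764, 3023, 3185 and 3072 in MLPKO-cRADKO. Here the MLPKO mice fell into 2 low and 3 high values, and every MLPKO-cRADKO value lay within their range. In log2 fold change the subunits stood at −0.055 (95% interval −0.20 to 0.090) for *Bckdha*, 0.13 (−0.090 to 0.35) for *Bckdhb* and −0.036 (−0.24 to 0.17) for *Dbt*, with edgeR adjusted p of 0.685, 0.497 and 0.864. Without MLPKO mouse 2 that of *Bckdhb* was 0.043, and without MLPKO-cRADKO mouse 1 that of *Bckdha* was −0.0195 (edgeR adjusted p = 0.901).

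The *Bckdha* counts carry a limit of their own. Exons of *B3gnt8*, a glycosyltransferase gene on the opposite strand, cover 1171 of the 1913 bases of the canonical *Bckdha* transcript (61.2%), including 63.6% of its coding bases. Whether the counting used strand is not given in the sources used here, so it is not known how reads in the overlap were assigned. The raw counts given to *B3gnt8* were 2.94% to 6.63% of those given to *Bckdha* in the 10 mice, and *B3gnt8* had a log2 fold change of 0.089 (edgeR adjusted p = 0.810). Smaller stretches of opposite-strand exon cover 13.8% of the canonical transcript of *Bcat2*, 9.33% of that of *Ppm1k*, 4.89% of that of *Ivd* and 2.72% of that of *Mmut*.

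*Bckdk* (chromosome 7, 127502939 to 127510162) encodes the kinase that inactivates the complex. Its normalized counts were 3674, 3422, 3620, 3673 and 3771 in MLPKO and 3241, 3385, 3342, 3809 and 3472 in MLPKO-cRADKO, with means of 3632 ± 130 and 3450 ± 217 (SD, n = 5 each). Of the MLPKO-cRADKO mice, 3 lay below every MLPKO mouse, 1 lay above every MLPKO mouse and 1 fell between. Between genotypes the log2 fold change was −0.074 (SE 0.056, 95% interval −0.20 to 0.048, edgeR adjusted p = 0.478), the smallest SE of the 10 genes, so that the bounds were 87.3% and 103% of the MLPKO level.

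*Ppm1k* (chromosome 6, 57483475 to 57512492, minus strand) encodes the mitochondrial phosphatase that reactivates the complex. Its normalized counts were 3100, 2160, 3253, 3949 and 3479 in MLPKO and 3644, 3613, 2822, 4456 and 3765 in MLPKO-cRADKO, with means of 3188 ± 658 and 3660 ± 581 (SD, n = 5 each). It spread most between mice of the 10 genes, with a ratio of the highest to the lowest mouse of 2.06 against 1.18 to 1.59 for the other 9. The genotypes overlapped, the lowest value being MLPKO mouse 2 and the highest MLPKO-cRADKO mouse 4. This gave a log2 fold change of 0.20 (SE 0.15, 95% interval −0.13 to 0.53, edgeR adjusted p = 0.479). That value was 0.088 without MLPKO mouse 2 and 0.29 without MLPKO-cRADKO mouse 3.

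Because the 2 enzymes act on the same serines in opposite directions, their ratio was taken in each mouse as the difference of log2 CPM, *Bckdk* minus *Ppm1k*. It was 0.25, 0.66, 0.15, −0.10 and 0.12 in MLPKO and −0.17, −0.094, 0.24, −0.23 and −0.12 in MLPKO-cRADKO. The ratio was above 0 in 4 of 5 MLPKO mice and below 0 in 4 of 5 MLPKO-cRADKO mice, with means of 0.21 ± 0.28 and −0.072 ± 0.18 (SD). CPM is not corrected for transcript length, so a ratio of 0 does not mark equal levels of the 2 transcripts. In CPM per kb of canonical transcript, *Bckdk* at 22.0 to 25.9 lay above *Ppm1k* at 9.25 to 19.1 in every mouse. The difference of −0.29 did not pass a two-sided exact permutation test over the mice (p = 0.103, smallest possible p = 0.00794, n = 5 per genotype).

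This ratio depended on single mice in both directions. Without MLPKO-cRADKO mouse 3, the mouse with adipocyte transcripts, the difference was −0.37 (exact permutation p = 0.0318), and without MLPKO mouse 4 it was −0.37 (exact permutation p = 0.0476). Without MLPKO mouse 2, the mouse with the highest ratio, it was −0.18 (exact permutation p = 0.206). These are ratios of transcripts, and phosphorylation of the subunit was not analysed here.

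**Figure D2:**
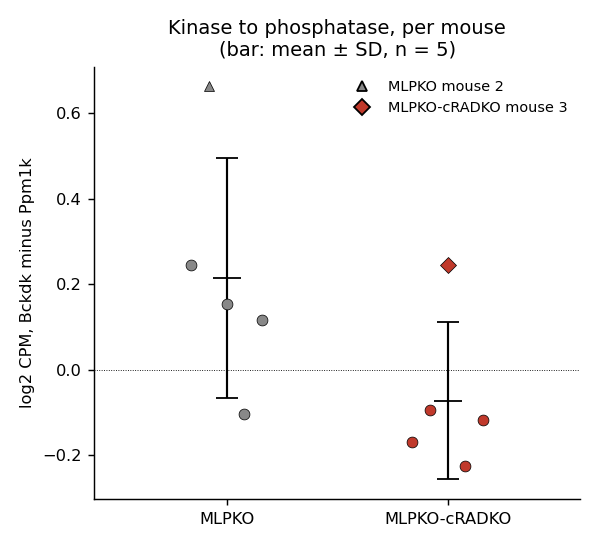
Log2 CPM of *Bckdk* minus that of *Ppm1k* (y axis) in each mouse of the 2 genotypes (x axis), with mean ± SD (n = 5). The genotypes overlap through MLPKO mouse 4 at −0.10 and MLPKO-cRADKO mouse 3 at 0.24.

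*Ivd* (chromosome 2, 118692141 to 118714335) encodes isovaleryl-CoA dehydrogenase of the leucine branch and had the highest counts of the 10 genes. Its normalized counts were 13777, 10667, 14549, 16385 and 14962 in MLPKO and 10387, 11268, 14364, 15292 and 14489 in MLPKO-cRADKO. In MLPKO 1 mouse was low, in MLPKO-cRADKO mice 1 and 2 were low, and the remaining 7 mice of both genotypes lay between 13777 and 16385. Its log2 fold change was −0.096 (SE 0.13, 95% interval −0.38 to 0.19, edgeR adjusted p = 0.723), and −0.18 without MLPKO mouse 2 (edgeR adjusted p = 0.393). Without MLPKO-cRADKO mouse 1 it was −0.022 (edgeR adjusted p = 0.944).

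*Pcca* (chromosome 14, 122771526 to 123128534) and *Pccb* (chromosome 9, 100864085 to 100916978, minus strand) encode the α and β subunits of propionyl-CoA carboxylase, which takes up the propionyl-CoA of isoleucine and valine. *Pcca* had normalized counts of 3742, 3175, 4083, 3678 and 4023 in MLPKO and 3401, 3755, 3935, 3964 and 3667 in MLPKO-cRADKO, with means of 3740 ± 361 and 3744 ± 228 (SD, n = 5 each). *Pccb* had 4725, 4493, 4677, 4544 and 5098 in MLPKO and 4340, 4804, 4269, 4826 and 4301 in MLPKO-cRADKO. Of the MLPKO-cRADKO mice, 3 had less *Pccb* than any MLPKO mouse, and the other 2 lay inside the MLPKO range. In log2 fold change this was 0.0014 (95% interval −0.16 to 0.16, edgeR adjusted p = 0.993) for *Pcca* and −0.062 (−0.19 to 0.066, edgeR adjusted p = 0.584) for *Pccb*. The sign of *Pcca* turned with the scaling, to −0.0023 with RLE size factors and −0.0025 in DESeq2.

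*Mmut* (chromosome 17, 41245567 to 41274873) encodes methylmalonyl-CoA mutase, a cobalamin-dependent enzyme that yields succinyl-CoA for the tricarboxylic acid cycle. Its normalized counts were 4399, 4102, 4540, 5037 and 4980 in MLPKO and 4423, 4943, 4663, 5160 and 4963 in MLPKO-cRADKO. The genotypes overlapped over most of their range, with a log2 fold change of 0.067 (SE 0.069, 95% interval −0.084 to 0.22, edgeR adjusted p = 0.624).

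**Figure D3:**
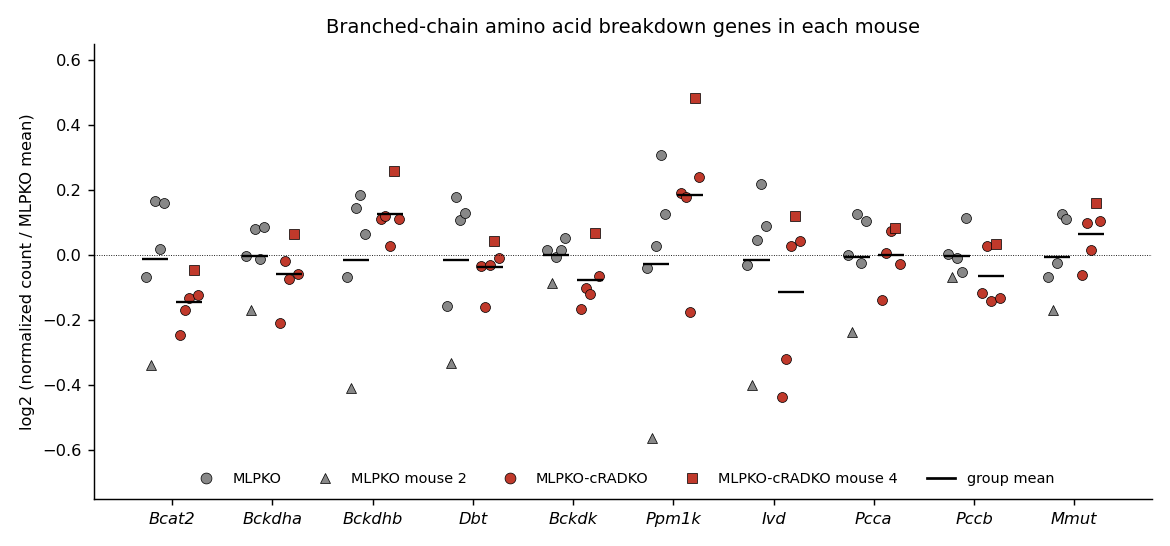
Normalized count of each of the 10 genes (x axis) in each mouse as log2 of its ratio to the MLPKO mean (y axis), with black lines for the mean of the log2 values. MLPKO mouse 2 (triangle) is the lowest of its genotype and MLPKO-cRADKO mouse 4 (square) the highest of its genotype in all 10 genes.

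In each genotype, 1 mouse held the same extreme in all 10 genes. MLPKO mouse 2 had the lowest value of its genotype in 10 of 10 genes and the lowest of all 10 mice in 6, whereas it was lowest of its genotype in 28.4% of all genes tested. MLPKO-cRADKO mouse 4 had the highest value of its genotype in 10 of 10 genes, and in 2690 of the 13454 genes tested. Summed over the 10 genes, the normalized counts were 47055, 39564, 50673, 52184 and 52025 in MLPKO and 42436, 45153, 46986, 52206 and 48466 in MLPKO-cRADKO. The extremes of this sum were thus the same 2 mice, and every other mouse lay between them. The remaining mice kept no single order, since MLPKO mouse 4 was the highest of its genotype for *Ivd* but low for *Pccb*, and MLPKO-cRADKO mice 2 and 3 changed places between these genes. These mice were singled out after their values were seen, and no test was made.

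The same 2 mice were counted in the other lists. Among 15 further enzymes of the pathway, MLPKO mouse 2 was lowest of its genotype in 10 and MLPKO-cRADKO mouse 4 highest in 11. Among 10 genes of general mitochondrial content, such as citrate synthase (*Cs*) and respiratory chain subunits, the counts were 9 and 8. They were 8 and 7 among 12 genes of the related pyruvate and 2-oxoglutarate dehydrogenase complexes, 3 and 1 among 6 genes of cobalamin handling, and 1 and 1 among 6 branched-chain amino acid transporters. The median coefficient of variation of the 10 genes was 11.6% in MLPKO and 6.17% in MLPKO-cRADKO, against 12.9% and 10.4% over all genes, with no test of the difference. Without MLPKO mouse 2, edgeR called 0 of 10 genes, against 347 of the 13454 genes tested. In that setting 7 of the 10 were below 0 and the median log2 fold change was −0.086. Of the 10 genes, only *Bcat2* then had an unadjusted p under 0.05, and that share over all genes was not counted without MLPKO mouse 2. Without MLPKO-cRADKO mouse 3, 0 of 10 were called, against 105 of all genes, and the median was −0.034. Without MLPKO-cRADKO mouse 1, the lowest of its genotype in 6 of the 10 genes, 0 of 10 were called, against 251 of all genes.

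Levels of different genes were compared as CPM per kb of the canonical transcript. *Bcat2* stood highest at 90.3 (range over mice 75.0 to 106), followed by *Ivd* at 67.2 (51.2 to 80.8) and *Pccb* at 48.0 (44.5 to 53.2). *Pcca* at 32.1, *Mmut* at 31.0 and *Bckdha* at 30.5 formed a group whose ranges overlapped almost wholly. The level and rank of *Bckdha* carry the limit of the *B3gnt8* overlap given above, as its length includes the shared bases. Below them were *Bckdk* at 24.1 and *Dbt* at 22.1, whose ranges also overlapped, then *Ppm1k* at 14.7 (9.25 to 19.1) and *Bckdhb* at 9.16 (6.60 to 10.5). Ranges of neighbours did not touch between *Pccb* and *Pcca* or between *Bckdha* and *Bckdk*. With the union of all annotated exons as the length, *Ivd* came first, *Dbt* had rank 3 and *Pcca* rank 9, and *Bckdhb* was last with either length. The order among the middle genes thus depends on the transcript length taken.

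Ratios between subunits of 1 enzyme were taken on the same scale of CPM per kb of canonical transcript. The ratio of *Pcca* to *Pccb* was 0.654 ± 0.049 in MLPKO and 0.685 ± 0.048 in MLPKO-cRADKO (SD, n = 5). The ratio of *Bckdha* to *Bckdhb* was 3.60 ± 0.40 and 3.13 ± 0.17, and that of *Dbt* to *Bckdhb* was 2.57 ± 0.14 and 2.29 ± 0.14. The ratio of *Dbt* to *Bckdhb* overlapped only narrowly, from 2.40 to 2.70 in MLPKO and from 2.10 to 2.46 in MLPKO-cRADKO, and no test was made of these ratios. Their size depends on the length taken. From the means over all mice, *Pcca* to *Pccb* was 0.669 with canonical lengths and 0.411 with the union of exons, and *Dbt* to *Bckdhb* was 2.41 and 7.02. *Bckdha* to *Bckdhb* was 3.33 and 4.83 in the same way, and this ratio also carries the limit of the *B3gnt8* overlap.

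**Figure D4:**
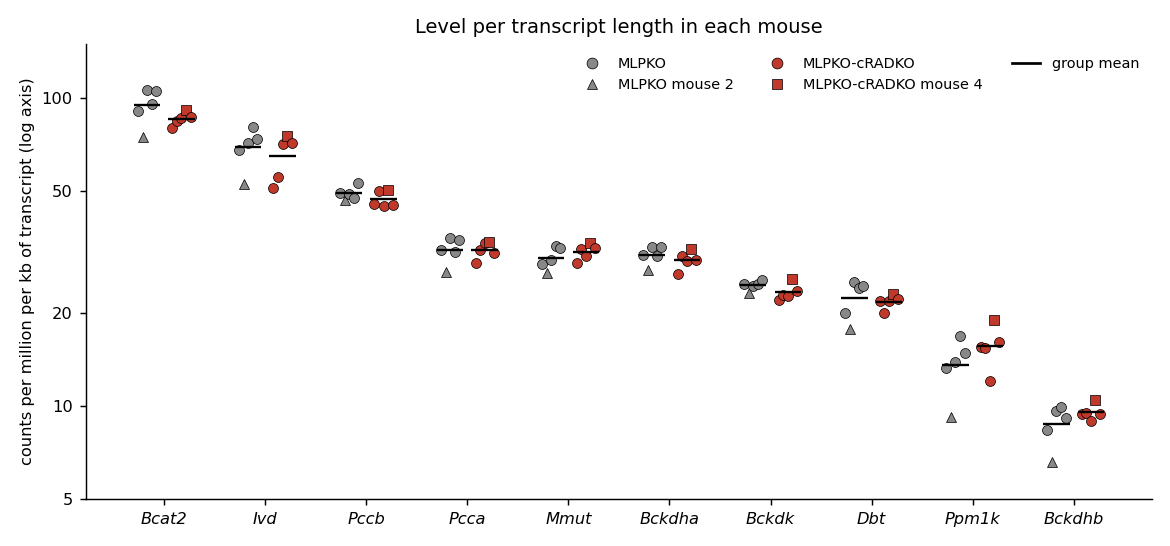
Level of each gene (x axis, ordered by mean) in each mouse as CPM per kb of canonical transcript (y axis, log scale), with lines for genotype means. *Bcat2* is the highest at 90.3 and *Bckdhb* the lowest at 9.16, and the genotypes overlap in every gene.

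The remaining 27 genes of the pathway list, 15 breakdown enzymes, 6 genes of cobalamin handling and 6 transporters, also held no call by edgeR (0 of 27, against 2.74% of all genes). Of these 27 genes, 6 had an unadjusted p under 0.05, against 21.6% of all genes. DESeq2 called 2 of the 27, against 10.0% of all genes with an adjusted p. The median log2 fold change was −0.0028, with 14 genes below 0 and 13 above. Among the breakdown enzymes, 10 of 15 were above 0 with a median of 0.10. The largest estimates were *Mcee*, methylmalonyl-CoA epimerase just before *Mmut*, at 0.23 (SE 0.087, edgeR adjusted p = 0.152), *Bcat1*, the cytosolic transaminase, at 0.22 (SE 0.34, edgeR adjusted p = 0.767), and *Aldh6a1* of the valine branch at 0.20 (SE 0.083, edgeR adjusted p = 0.185). *Bcat1* had 26 to 87 normalized counts, against 5547 to 7860 for *Bcat2*.

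The estimates furthest from 0 among the 27 genes belonged to transporters of the plasma membrane. *Slc7a5*, the light chain of the LAT1 transporter for large neutral amino acids, had normalized counts of 552, 769, 429, 370 and 515 in MLPKO and 411, 283, 366, 357 and 368 in MLPKO-cRADKO. *Slc43a2*, which encodes the transporter LAT4, had 1573, 1497, 1187, 956 and 1353 in MLPKO and 1155, 921, 979, 1006 and 770 in MLPKO-cRADKO. In both genes the MLPKO mice lay mostly above, and MLPKO mouse 4, the lowest of its genotype, fell inside the MLPKO-cRADKO range.

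The log2 fold change was −0.56 (SE 0.18, 95% interval −0.95 to −0.18) for *Slc7a5* and −0.44 (SE 0.14, 95% interval −0.74 to −0.14) for *Slc43a2*. Neither passed in edgeR (adjusted p = 0.0969 and 0.0940), whereas DESeq2 called both lower in MLPKO-cRADKO (adjusted p = 0.0276 and 0.0291), as did edgeR without MLPKO mouse 4 (adjusted p = 0.0389 and 0.0281). Leaving out MLPKO mouse 4 also raised the edgeR calls over all genes from 369 to 826. Without MLPKO mouse 2 the log2 fold change of *Slc7a5* was −0.39 and not called. *Slc7a8* came next among the 6 transporters at 0.30 (SE 0.21, edgeR adjusted p = 0.432), and *Slc25a44*, the mitochondrial carrier of these amino acids, had 777 to 1083 normalized counts in MLPKO and 834 to 972 in MLPKO-cRADKO.

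**Figure D5:**
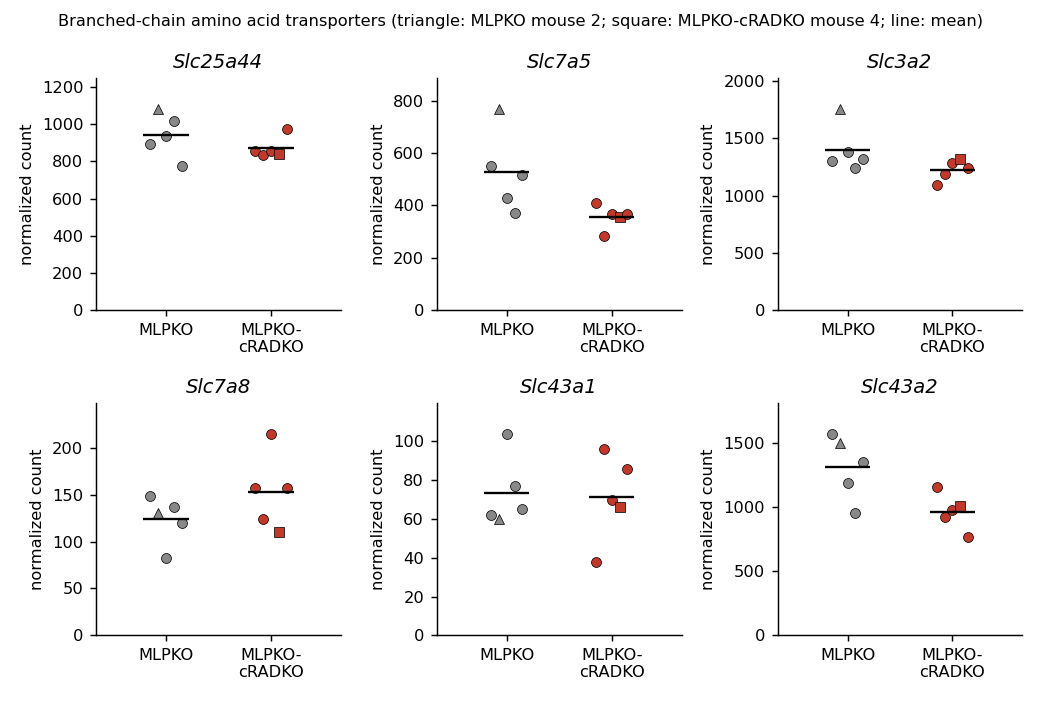
Normalized counts (y axis, from 0) of the 6 branched-chain amino acid transporter genes in each mouse of the 2 genotypes (x axis), with lines for the means. *Slc7a5* and *Slc43a2* have the largest differences, and MLPKO mouse 4 lies inside the MLPKO-cRADKO range in both.

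In the 6 genes of cobalamin handling, which supply the cofactor of *Mmut*, the estimates furthest from 0 were *Lmbrd1* at −0.25 (SE 0.33), *Abcd4* at 0.23 (SE 0.12) and *Mmab* at 0.12 (SE 0.13), with edgeR adjusted p of 0.718, 0.308 and 0.637. The pyruvate and 2-oxoglutarate dehydrogenase complexes are built on the same plan as the branched-chain complex, and 0 of 12 genes of these complexes and their kinases and phosphatases were called by edgeR or by DESeq2, with 1 at an unadjusted p under 0.05. Their median log2 fold change was 0.058, and the estimates furthest from 0 were *Pdp2* at 0.53 (SE 0.25, edgeR adjusted p = 0.253), *Pdk3* at 0.49 (SE 0.20, edgeR adjusted p = 0.177) and *Pdk4* at 0.45 (SE 0.32, edgeR adjusted p = 0.450). *Pdk4*, the pyruvate dehydrogenase kinase induced in fasting, ranged from 8096 to 32415 normalized counts within MLPKO-cRADKO alone.

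Of 4 transcriptional regulators linked to these genes, 0 were called by edgeR and all 4 were above 0. *Ppargc1a*, a coactivator of mitochondrial genes, had normalized counts of 3523, 2287, 3322, 4017 and 3014 in MLPKO and 4508, 4244, 3808, 4763 and 4486 in MLPKO-cRADKO, which overlapped only through MLPKO mouse 4. Its log2 fold change was 0.43 (SE 0.13, 95% interval 0.16 to 0.71, edgeR adjusted p = 0.0785), and DESeq2 called it higher (adjusted p = 0.0203), as did edgeR without MLPKO mouse 4 (adjusted p = 0.0314). With that mouse left out, edgeR called 826 of all genes, against 369 with all mice. Limma-voom did not call *Ppargc1a* (adjusted p = 0.0730), nor did edgeR without any other single mouse (adjusted p from 0.0675 to 0.162). Without MLPKO mouse 2 its log2 fold change was 0.33 (edgeR adjusted p = 0.0675). *Klf15*, a factor known to act on branched-chain amino acid genes in the heart, was at 0.21 (SE 0.094, edgeR adjusted p = 0.226), and *Ppara* at 0.12 (edgeR adjusted p = 0.733). Of the 10 mitochondrial content genes, 9 were above 0 and 0 were called by edgeR, with a median log2 fold change of 0.086. DESeq2 called 1 of them, *Cox4i1* (0.20, DESeq2 adjusted p = 0.0362, edgeR adjusted p = 0.109), followed in size by *Etfa* at 0.20 (edgeR adjusted p = 0.177) and *Sdha* at 0.14 (edgeR adjusted p = 0.323).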

How the data were processed

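RNA was sequenced as 1 library per mouse from 5 MLPKO and 5 MLPKO-cRADKO hearts. Per the methods and the submitters' processing notes, reads were checked with FastQC, aligned to GRCm39 with STAR and counted per gene with featureCounts. Versions, strand and multi-mapping settings are not given in the sources used here. The authors deposited raw counts per gene, not normalized, for 60676 genes, of which 3491 held no value. GENCODE M39 on GRCm39 named 56629 of the other 57185 genes. With the thresholds of the authors' filter, a gene had to exceed 10 counts in 6 or more of the 10 mice, and 1778 Gm or Rik genes were left out. The authors also excluded non-annotated genes, whereas 36 genes without a symbol were kept here. The 13454 genes were compared with edgeR 4.0.16 (TMM, quasi-likelihood test, Benjamini-Hochberg, threshold 0.05) in R 4.3.3. The authors' tool, DESeq2 1.42.0, and limma-voom (limma 3.58.1) were alternatives. Scripts were tested on simulated data. Intervals are 95% and rest on the edgeR SE. Log2 CPM used a prior count of 2. Other alternatives were RLE and upper quartile size factors, other filters, a replicate block and leaving out each mouse. The 10 genes had normalized counts of 1358 or more in every mouse, and intervals cover the spread between mice. The 10 genes and the lists were chosen with earlier results of these data known. All 10 genes are named, and from each other list the called genes, otherwise the 3 largest estimates. One further result on a breakdown enzyme is not reported here.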

Additional observations from a re-analysis of the deposited data

Results flagged for a closer look

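Over 40 groups of 5 mice (the 10 genes and related measures in each genotype), 2 held a mouse far from the others by Dixon's criterion (gap over range above 0.71), where chance gives about 1 in 20. The log2 ratio of *Bckdk* to *Ppm1k* was 0.244 in MLPKO-cRADKO mouse 3, the mouse with adipocyte transcripts, against −0.23 to −0.094 in the other 4 MLPKO-cRADKO mice (gap over range 0.719). The normalized count of *Mmab*, a cobalamin adenosyltransferase gene, was 1119 in MLPKO mouse 2, against 1624 to 1820 in the other 4 MLPKO mice (gap over range 0.721).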

How the results depend on the processing

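No gene of the 10 was called under any of the 18 alternatives, with a smallest adjusted p of 0.0946, and 173 of 180 log2 fold changes had the sign of the main value. The 7 others were near 0: *Pcca* with RLE size factors (−0.0023), in DESeq2 (−0.0025) and with single mice left out (range −0.052 to 0.041), and *Dbt* with single mice left out (−0.11 to 0.018). Of the other 27 pathway genes, DESeq2 called 2, against 10.0% of all genes with an adjusted p. Leaving out single mice gave 0 to 2 calls among the 27, the 2 being without MLPKO mouse 4. The ratio of *Bckdk* to *Ppm1k* differed by −0.37 to −0.18 with single mice left out. It passed without MLPKO mouse 4 and without MLPKO-cRADKO mouse 3, and the cause was not tested. Leaving out single mice moved calls over all genes between 47 and 826, against 369, the 826 being without MLPKO mouse 4. Same-numbered mice of the genotypes are different animals, and their correlations ran from −0.044 to 0.15, so the numbers do not pair them. With a replicate block, 0 of the 10 genes and 281 of all genes were called, and the ratio differed by −0.29 (exact sign test, p = 0.375); only mice 1 and 3 correlated best with their own number.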

Other observations

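*Lmbrd1*, a lysosomal cobalamin export gene, varied more within MLPKO than any of the 10 breakdown genes. Its normalized counts were 399, 1159, 1221, 2183 and 2138 in MLPKO mice 1 to 5 and 1276, 1156, 1113, 1222 and 1200 in MLPKO-cRADKO mice 1 to 5. The MLPKO values thus lay in 3 levels, the middle one shared by 2 MLPKO mice and all 5 MLPKO-cRADKO mice, while *Mmut*, whose cofactor it helps to supply, varied between 4102 and 5037 in the same MLPKO mice. *Csrp3* transcript was highest in MLPKO mouse 2, with a normalized count of 134795, the other MLPKO mice lying between 41725 and 80873. That mouse had the lowest summed count of the 10 breakdown genes, 39564. MLPKO mouse 5, next in *Csrp3* at 80873, had a high sum of 52025, and a link between these values was not tested.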
